A study of Mus musculus with 9 samples.

Results

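The 7 genes described here encode acute-phase and antimicrobial proteins that macrophages and other cells secrete: Ptx3, Saa3, Lcn2, Hp, Slpi, Lyz1 and Lyz2. They were picked by symbol from the 55655 rows of each FPKM table, and each symbol matched 1 Ensembl row. The genes were proposed with FPKM values of these libraries in view, so levels and changes are a description, and the p-values of the fit only place each gene against the thresholds. RNA-seq was done on bone marrow-derived macrophages from the femur and tibia of wild-type C57BL/6 mice aged 6 to 8 weeks, grown for 7 days with the growth factor M-CSF at 10 ng/mL. M0 libraries came from such resting cells without further treatment, M1 libraries from cells given lipopolysaccharide (LPS, a bacterial cell wall component) and interferon-γ (IFN-γ) for 12 hours, and M1+PBM libraries from cells given LPS and IFN-γ together with photobiomodulation (PBM), irradiation by a near-infrared laser. Each condition had 3 libraries. The paper describes its RNA-seq comparison of M1 with and without PBM as repeated independently 3 times. The labels do not say whether the libraries of a condition came from separate mice, so the spread between them may be partly technical.

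Acute-phase proteins are released in bulk when infection or injury raises cytokines such as IL-1 and IL-6. Most are made by liver, while Ptx3, Saa3 and Lcn2 are also induced locally in macrophages and stromal cells through Toll-like receptors. The antimicrobial proteins act outside the cell: lysozyme cuts the peptidoglycan of bacterial walls, lipocalin 2 captures bacterial siderophores and so withholds iron, and Slpi blocks neutrophil serine proteases. Transcription factors of the NF-κB and C/EBP families are the best known regulators of this group.

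To show the DNA beside which these genes start, the 250 bases before the start were read for the 6 genes listed in the RefSeq promoter table (GRCm38.p6). Of the 7 genes, Hp had no entry. Windows are printed 5′ to 3′ on the gene's own strand for Ptx3, which was lower with PBM, for Saa3, which stayed high, and for the closely related pair Lyz1 and Lyz2. Capitals mark matches on either strand to the C/EBP-type motif TTGCNNAA or to the core of the interferon-stimulated response element (ISRE), which is GAAA, any 2 bases, and GAAA.
Ptx3, chr3:66219637-66219886, plus strand: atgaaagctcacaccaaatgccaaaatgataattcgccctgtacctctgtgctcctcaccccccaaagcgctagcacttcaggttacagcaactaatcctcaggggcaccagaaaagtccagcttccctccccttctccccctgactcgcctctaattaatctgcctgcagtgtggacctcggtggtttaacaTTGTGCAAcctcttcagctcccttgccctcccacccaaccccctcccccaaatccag
Saa3, chr7:46715677-46715926, minus strand: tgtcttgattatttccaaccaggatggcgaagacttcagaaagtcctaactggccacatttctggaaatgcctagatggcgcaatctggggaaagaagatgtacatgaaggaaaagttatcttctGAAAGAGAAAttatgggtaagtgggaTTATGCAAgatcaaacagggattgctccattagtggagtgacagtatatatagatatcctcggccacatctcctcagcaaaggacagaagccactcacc
Lyz1, chr10:117292869-117293118, minus strand: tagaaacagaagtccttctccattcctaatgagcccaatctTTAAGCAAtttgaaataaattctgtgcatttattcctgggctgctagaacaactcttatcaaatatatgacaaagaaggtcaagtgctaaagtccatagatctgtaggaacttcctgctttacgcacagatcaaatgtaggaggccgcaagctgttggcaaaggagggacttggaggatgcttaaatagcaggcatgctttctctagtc
Lyz2, chr10:117282273-117282522, minus strand: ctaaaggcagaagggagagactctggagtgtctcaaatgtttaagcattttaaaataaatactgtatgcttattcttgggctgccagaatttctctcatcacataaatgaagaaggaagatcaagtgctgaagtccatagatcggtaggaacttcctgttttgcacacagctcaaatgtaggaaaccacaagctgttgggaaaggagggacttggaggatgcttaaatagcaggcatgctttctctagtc

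The motif TTGCNNAA occurred in 5 of the 6 windows and in 9.57% of 32536 distinct RefSeq windows of the same length. Counted from the start, the match lay at positions -57 to -50 in Ptx3 and at -99 to -92 in Saa3. Lcn2 held TTGCTCAA at -216 to -209, and Slpi held TTGAGCAA at -241 to -234. Lyz1 had a match at -209 to -202, and Lyz2 had none in this window. The ISRE core was found in Saa3 alone among the 6, as GAAAGAGAAA at -125 to -116, and in 2.98% of all windows. Matches to the κB motif (3.92% of all windows) and to the AP-1 motif TGANTCA (6.73%) were absent from the 6 windows. The letters searched were chosen after these windows had been read, and a match describes the sequence only. The windows of Lyz1 and Lyz2 were identical at 200 of 252 aligned positions (79.4%).

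Before the results, 2 libraries need description. M0 replicate 3 stood apart from the other M0 libraries: 508 of 13915 rows (3.65%) were at least 1 log2 unit above the mean of replicates 1 and 2, against 95 rows for replicate 2 and 85 for replicate 1 by the same measure. Its summed FPKM over 11 stromal markers was 261.3, against 9.40 and 8.05 in M0 replicates 1 and 2, and Il6 was 0.85 there against 0.028 and 0.036. Other inflammatory genes were also higher in it, with Tnf at 233.3 against 16.9 and 14.9, Il1b at 25.1 against 0.29 and 0.24, and Acod1 at 77.6 against 1.54 and 0.90. M1 replicate 2 held 25.0 FPKM summed over 18 liver markers, with Alb at 9.01, while the other 8 libraries held 1.06 to 3.95. The stromal sum was 17 to 20.8 in M1 and 7.83 to 38.7 in M1+PBM, and its part in the changes with PBM was not tested. All 11 macrophage markers had an FPKM of at least 1 in every library, and their sum ran from 2425 to 3502. Of 14 neutrophil markers, 10 stayed below 1 FPKM in all 9 libraries, Ly6g, Ctsg and S100a9 among them at 0. S100a8 was 1.13 to 2.11 in M0, 6.90 to 27.2 in M1 and 4.94 to 14.5 in M1+PBM. Camp reached 2.80 in M1 replicate 1, and Mmp8 reached 4.21 in M0 replicate 1. The sum over the neutrophil list was 14.8 to 28.5 in M0, 111.8 to 164.2 in M1 and 105.3 to 109.8 in M1+PBM, of which Csf3r, the G-CSF receptor that macrophages also express, made 93.2 to 135.4 in the M1 and M1+PBM libraries. The 12 lymphoid, erythroid and dendritic markers summed to less than 1 FPKM in each library, the highest sum being 0.90.

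The first question was how the group behaved on activation by LPS and IFN-γ. The M0 values come from a separate table, possibly normalized apart, so M1 was set against M0 without a test. Every M1 library lay above every M0 library for 4 of the 7 genes (Saa3, Lcn2, Hp and Slpi), as it did for 15.6% of 13915 rows. Each of the 4 was also higher by at least 1 log2 unit, and 7.81% of rows met both conditions. The same 4 genes had every M1+PBM library above every M0 library, against 15.9% of rows. The M1+PBM means of Lyz1 and Lyz2 were below their M0 means as deposited, and this was not examined after scaling. Over all rows the median difference between M1 and M0 was also negative, at -0.34 log2 units. Neither lysozyme gene had a higher mean FPKM in M1 as deposited. Levels are FPKM, fragments scaled to transcript length and to the fragments mapped in the library, and differences are on the log2(FPKM + 1) scale. In bulk RNA, a change in the number of expressing cells and a change of RNA per cell cannot be told apart.

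Saa3 (ENSMUSG00000040026) encodes serum amyloid A3, the form that macrophages make. Its FPKM was 0.55, 0.45 and 31.4 in M0 replicates 1 to 3, 3350, 2396 and 2887 in M1, and 3098, 2657 and 2478 in M1+PBM. The activated libraries were far above the resting ones, and in each of the 6 Saa3 ranked 3 among protein-coding genes by FPKM. The difference between M1 and M0 was 9.42 log2 units, and 10.89 without M0 replicate 3.

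Lcn2 (ENSMUSG00000026822), the gene of lipocalin 2, stood at 0.025, 0.043 and 1.05 in M0. The first 2 of these values correspond to at most about 1.06 and 2.0 fragments, so no fold is given for them. Lcn2 reached 157.0, 73.2 and 167.1 in M1 and 105.2, 100.2 and 108.5 in M1+PBM. M1 replicate 2, the library with liver transcripts, was the lowest of the 6. The log2 difference between M1 and M0 was 6.59, and 6.92 without M0 replicate 3.

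Hp (ENSMUSG00000031722) encodes haptoglobin, which binds free haemoglobin and is best known as a liver product. Its FPKM was 0.81, 0.67 and 21.5 in M0, 106.2, 65.0 and 52.2 in M1, and 51.6, 39.1 and 41.1 in M1+PBM. M1 replicate 2, with its liver transcripts, lay between the other M1 libraries. The difference between M1 and M0 was 4.14 log2 units, and 5.38 without M0 replicate 3.

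Slpi (ENSMUSG00000017002), the secretory leukocyte protease inhibitor, was at 0.087, 0.23 and 1.57 in M0. In replicates 1 and 2 these values correspond to at most about 2.36 and 6.74 fragments. In M1 it was at 39.1, 6.31 and 7.96, so that replicate 1 was 6.2 times replicate 2. In M1+PBM it was at 3.99, 4.58 and 3.42, above every M0 library. The M1 to M0 difference was 3.19 log2 units, and 3.58 without M0 replicate 3.

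Ptx3 (ENSMUSG00000027832) encodes pentraxin 3, a soluble pattern recognition molecule that binds microbes and C1q. Its FPKM was 0.037, 0.044 and 4.76 in M0 replicates 1 to 3, 4.50, 3.65 and 8.79 in M1, and 0.89, 1.14 and 1.25 in M1+PBM. M0 replicate 3 was higher than 2 of the M1 libraries, so the M0 and M1 groups overlapped. The M1 to M0 difference was 1.78 log2 units with all libraries and 2.60 without M0 replicate 3. For M1+PBM against M0 the same differences were 0.18 and 1.00.

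In M0 replicate 3 each of these 5 genes was above both other M0 libraries, and for Ptx3 and Lcn2 no ratio is given because the other 2 hold so few fragments (at most about 2.83). The stromal markers, Il6, Tnf, Il1b and Acod1 were higher in that same library, and their part in the levels of Ptx3, Saa3, Lcn2, Hp and Slpi was not tested.

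The lysozymes behaved otherwise. Lyz2 (ENSMUSG00000069516) encodes lysozyme M, the constitutive form of macrophages, and had an FPKM of 5160, 6821 and 8773 in M0, 6263, 4265 and 3515 in M1, and 4835, 4418 and 3459 in M1+PBM. It ranked 1 or 2 among protein-coding genes in all 9 libraries. Between M1 and M0 Lyz2 differed by -0.57 log2 units, with overlap. Over all 13915 rows the median difference was -0.34, and median-of-ratios scaling of the 9 libraries moved that median by 0.31. With this scaling the difference of Lyz2 was -0.16.

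Lyz1 (ENSMUSG00000069515) encodes lysozyme P, the form typical of Paneth cells of the gut. Its FPKM was 2.48, 3.67 and 3.05 in M0, 3.12, 2.33 and 1.96 in M1, and 1.81, 1.98 and 1.63 in M1+PBM. These levels were 0.035% to 0.056% of those of Lyz2 in the same library. The longest coding transcripts of the pair are identical at 92.0% of aligned positions, and 16.1% of the 50-base stretches of Lyz1 also occur in Lyz2. Whether fragments of Lyz2 were counted for Lyz1 was not tested, and the values of Lyz1 are therefore uncertain. The M1 to M0 difference of Lyz1 was -0.23 log2 units as deposited and 0.069 with median-of-ratios scaling, so its sign turned with the scaling. Saa3 shared 0 of 2151 such stretches with Saa1 or Saa2.

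**Figure D1:**
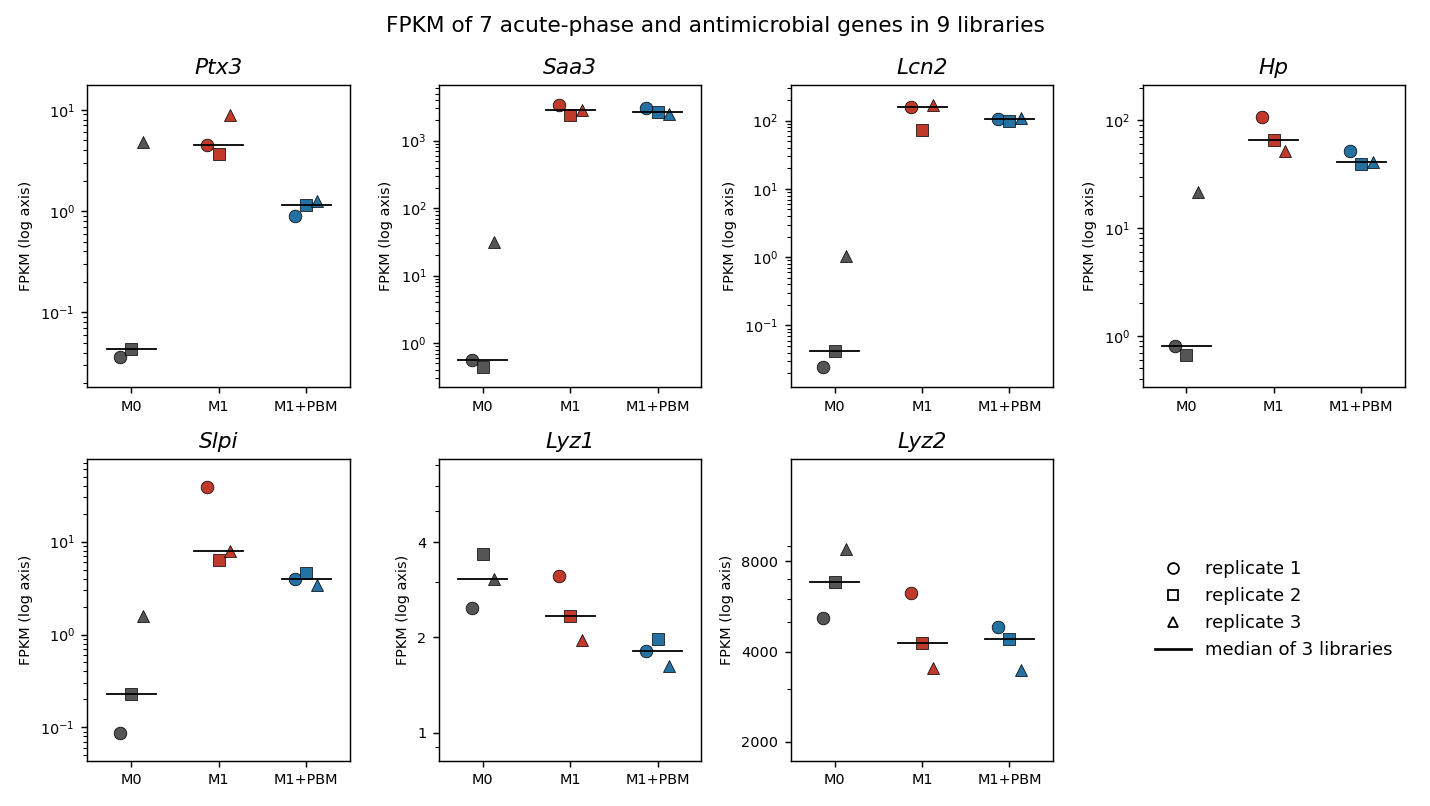
FPKM (log axis) of each gene in the 3 M0, 3 M1 and 3 M1+PBM libraries. Symbols mark the replicate number and lines the median of the group. M0 replicate 3 sits far above the other M0 libraries for Ptx3, Saa3, Lcn2, Hp and Slpi, and every M1+PBM library is below every M1 library for Ptx3, Hp and Slpi.

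The second question was what PBM changed in M1 macrophages. Ptx3 and Slpi had the largest differences, Hp a smaller one, and Saa3, Lcn2, Lyz1 and Lyz2 differed by less than 0.3 log2 units. All 7 genes were among the 12238 rows that reached an FPKM of 1 in 3 or more of the 6 libraries, on which limma's moderated test was run. The study's thresholds for a call were p up to 0.05 and a log2 fold change of 1 or more in size. The paper does not say whether its p was adjusted, and the unadjusted p was used here. The thresholds were reached by 1 of the 7 genes (Ptx3), against 0.261% of all rows, of which 0.237% were lower and 0.0245% higher with PBM. These shares belong to the fit made here. The paper's own list at these thresholds was longer, and most of its genes were upregulated with PBM. Benjamini-Hochberg adjustment over all rows left 0 of the 7 under 0.05 in limma, against 0.00817% of rows, while 2 (Ptx3 and Hp) were lower at or under 0.05 before adjustment, against 1.45% of rows. The M1+PBM libraries were all below the M1 libraries for 3 of the 7 genes and all above them for 0, where the shares of all rows were 2.52% and 8.51%. With 3 libraries on each side, the smallest p that the exact permutation test of a single gene allows is 0.1.

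Ptx3 fell with PBM, from a mean of 5.65 ± 2.75 FPKM to 1.09 ± 0.19 (SD, 3 libraries each). Its log2 fold change was -1.60 (SE 0.27, 95% interval -2.26 to -0.94). In limma the unadjusted p was 0.00086 and the adjusted p 0.87, and the exact permutation p was 0.1. Pairing by replicate number gave -1.55, -1.12 and -2.12. With PBM the 3 libraries lay within 1.41 times of each other, at no more than about 58.0 to 90.7 fragments. The scale understates the change of such a low gene, and a pseudocount of 0.1 gave -2.18.

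Slpi averaged 17.8 ± 18.5 FPKM without PBM and 4.0 ± 0.58 with it (SD, 3 libraries each). Its log2 fold change was -1.47 (SE 0.62, 95% interval -2.96 to 0.016). In limma the unadjusted p was 0.052 and the adjusted p 0.90, and the exact permutation p was 0.1. M1 replicate 1 carried much of the size and the spread, since the value without that library was -0.70 (SE 0.16). In that fit the unadjusted p was 0.0059 (limma, adjusted p = 0.99), and the fold change fell short of the study's threshold. By replicate number the differences were -3.01, -0.39 and -1.02. In the blocked fit Slpi passed the study's thresholds (limma, unadjusted p = 0.038, adjusted p = 0.58). It also passed them without M1 replicate 2 (-1.93) or M1 replicate 3 (-1.78).

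Hp averaged 74.4 ± 28.2 FPKM without PBM and 43.9 ± 6.71 with it (SD, 3 libraries each). Its log2 fold change was -0.69 (SE 0.27, 95% interval -1.34 to -0.053). In limma the unadjusted p was 0.038 and the adjusted p 0.90, and the exact permutation p was 0.1. The groups parted narrowly, by 52.2 in M1 replicate 3 against 51.6 in M1+PBM replicate 1. In limma Hp no longer reached an unadjusted 0.05 when M1 replicate 1 (-0.41), M1 replicate 2 (-0.76), M1+PBM replicate 2 (-0.62) or M1+PBM replicate 3 (-0.65) was left out. By replicate number the differences were -1.03, -0.72 and -0.34, and the blocked fit lowered the unadjusted p to 0.0060 (limma, adjusted p = 0.58).

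Saa3 averaged 2878 ± 477.4 FPKM without PBM and 2744 ± 319.1 with it (SD, 3 libraries each). Its log2 fold change was -0.061 (95% interval -0.46 to 0.34, limma adjusted p = 0.96). Its sign turned when M1 replicate 1 (0.055) or M1+PBM replicate 3 (0.0091) was left out.

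Lcn2 averaged 132.4 ± 51.5 FPKM without PBM and 104.6 ± 4.18 with it (SD, 3 libraries each), and the M1+PBM libraries lay between the lowest and the middle M1 library. Its log2 fold change was -0.25 (95% interval -1.0 to 0.50, limma adjusted p = 0.91). Single libraries moved it widely. It was -0.037 when M1 replicate 3 was left out and -0.081 when M1 replicate 1 was. Leaving out M1 replicate 2 gave -0.63 and brought Lcn2 under an unadjusted 0.05 (limma, adjusted p = 0.51).

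Lyz2 averaged 4681 ± 1421 FPKM without PBM and 4237 ± 705.4 with it (SD, 3 libraries each). Its log2 fold change was -0.12 (95% interval -0.71 to 0.48, limma adjusted p = 0.95), with a turned sign when M1 replicate 1 (0.12) or M1+PBM replicate 3 (0.024) was left out. Lyz1 had -0.29 (95% interval -0.64 to 0.045, limma adjusted p = 0.90). Summing the FPKM of both lysozymes gave -0.12, which only restates Lyz2, because Lyz1 adds so little to the sum.

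**Figure D2:**
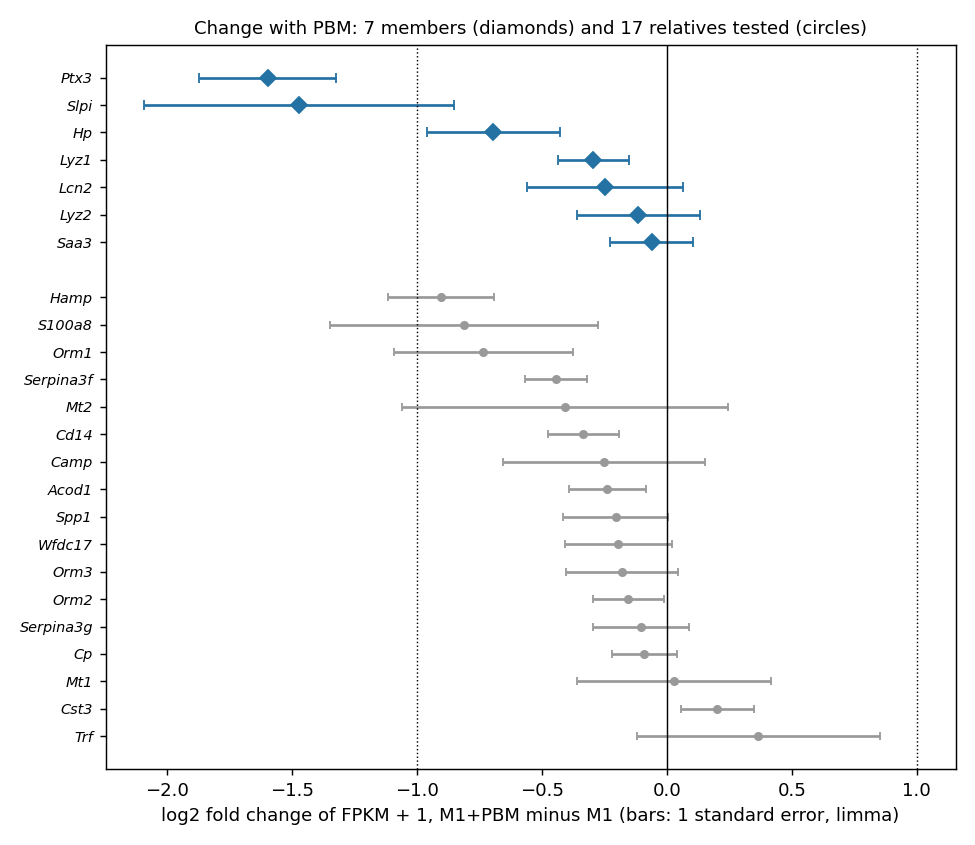
Log2 fold change of FPKM + 1 with PBM, with 1 standard error from limma, for the 7 genes (diamonds) and the 17 tested relatives (circles). Dotted lines mark a log2 fold change of 1 in size. Ptx3 (-1.60) and Slpi (-1.47) lie beyond the left line, and Saa3 (-0.061) lies at the line of no change.

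**Figure D3:**
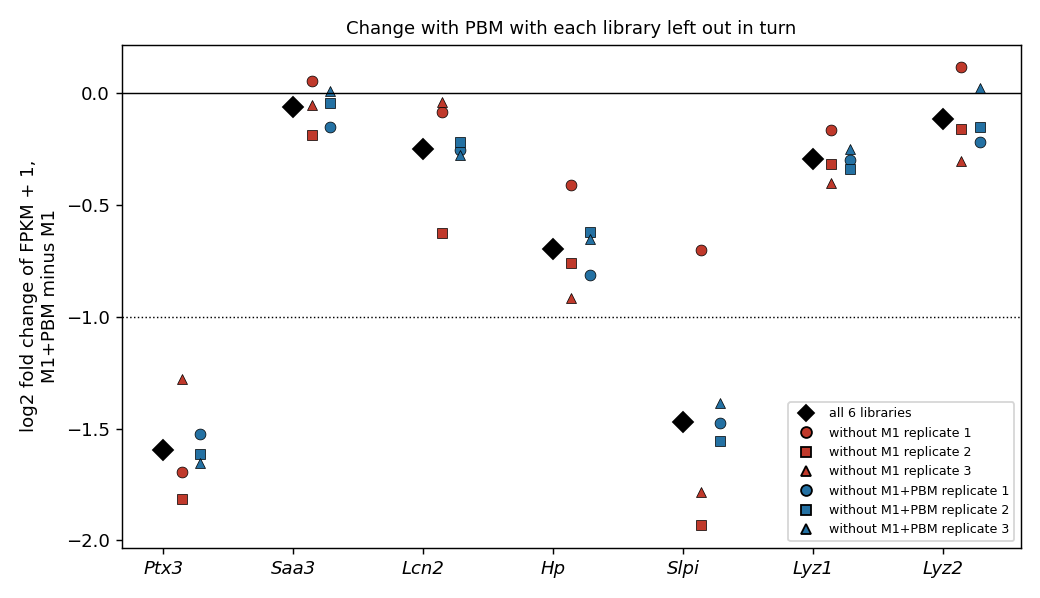
Log2 fold change of FPKM + 1 with PBM from all 6 libraries (diamonds) and with each library left out in turn. Ptx3 stays between -1.82 and -1.28, while Slpi runs from -1.93 to -0.70 and Lcn2 from -0.63 to -0.037.

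The spread between libraries was itself uneven. The coefficient of variation in M1 was 103.9% for Slpi, 48.8% for Ptx3, 38.9% for Lcn2 and 37.9% for Hp, and in M1+PBM it was 14.5% for Slpi, 17% for Ptx3, 4.0% for Lcn2 and 15.3% for Hp. This difference in spread was not tested.

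The wider families were written by function, with earlier results of these data known, and hold 54 further genes. Of these, 31 stayed below an FPKM of 1 in all 9 libraries, and 17 entered the test. With PBM, 14 of the 17 were lower and 3 higher, and their median change was -0.21 on the log2 scale against 0.058 over all rows, of which 34.4% were lower. Over the 7 genes the median was -0.29. None of the 17 was called by the thresholds of the study, and 2 were lower with an unadjusted 0.05 or less in limma, against 1.45% of all rows. These 2 were Hamp and Serpina3f. Hamp, the iron hormone hepcidin, had 2.33, 2.58 and 1.10 in M1 and 0.60, 0.43 and 0.68 in M1+PBM, which is -0.90 on the log2 scale (SE 0.21, limma adjusted p = 0.90). Serpina3f, a serine protease inhibitor, had -0.44 (SE 0.12, limma adjusted p = 0.90). The groups of both genes did not overlap. Orm1, an acute-phase glycoprotein, had -0.73 (SE 0.36, limma adjusted p = 0.90), with overlap.

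Saa1, a classical liver acute-phase gene, was listed at 0 in M0 and ranged from 0.34 to 2.07 in M1 and from 0.33 to 0.85 in M1+PBM. Fga, Fgb and Fgg, which are also among the 18 liver markers, were above 0 only in M1 replicate 2, the library with liver transcripts. These 4 genes are named after their values were seen. Among the most abundant relatives, Cd14, the LPS co-receptor, had 234.7 ± 12.1 in M1 and 187.4 ± 30.8 in M1+PBM, or -0.33 on the log2 scale (limma adjusted p = 0.90). Trf, the iron carrier transferrin, had 0.37 and Mt1, a metallothionein, 0.027, both with overlap. Cp, the copper oxidase ceruloplasmin, had 36.8 ± 5.42 in M1 and 34.2 ± 1.11 in M1+PBM against 0.86 ± 0.77 in M0 (SD, 3 libraries each). Wfdc17, which shares the whey acidic protein domain of Slpi, had 450.4 ± 84.3 in M1 and 394.6 ± 80.5 in M1+PBM. The difference was -0.19 on the log2 scale (SE 0.21, limma adjusted p = 0.90). Acod1, the enzyme of the antimicrobial metabolite itaconate, had 1690, 1548 and 1643 in M1 and 1535, 1523 and 1121 in M1+PBM, groups that did not overlap, and -0.24 on the log2 scale (limma adjusted p = 0.90). Spp1, the secreted protein osteopontin, averaged 452.7 ± 55.6 FPKM without PBM and 399.7 ± 109.1 with it, with overlap. Cst3, the secreted protease inhibitor cystatin C, had 231.5 ± 28.0 and 266.5 ± 35.1, or 0.20 on the log2 scale, also with overlap. S100a8, a subunit of calprotectin, had 16.7, 6.90 and 27.2 in M1 and 4.94, 6.94 and 14.5 in M1+PBM, with overlap. Camp, the cathelicidin gene, had -0.25 on the log2 scale, with overlap.

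Of 19 receptors and targets, 13 were tested, 9 higher and 4 lower with PBM, where 34.4% of all rows were lower. At an unadjusted 0.05 or less in limma 1 was lower, against 1.45% of all rows, and 0 were higher. This was Fpr1, a formyl peptide receptor, with 297.8 ± 40.0 in M1 and 211.6 ± 41.4 in M1+PBM, or -0.50 on the log2 scale (limma adjusted p = 0.90). Cd36, a scavenger receptor, differed by 0.51 (SE 0.35, limma adjusted p = 0.90) and Lrp1, an endocytic receptor, by 0.42 (SE 0.21, limma adjusted p = 0.90), both with overlap. C1qb, a chain of C1q, had 0.15 and Fcgr1, an antibody receptor, 0.13, also with overlap. Fpr2, the receptor through which serum amyloid A acts on phagocytes, is named after its values were seen. It had 0.20, 0.17 and 5.61 in M0, 213.5, 251.0 and 150.8 in M1, and 205.8, 254.5 and 102.9 in M1+PBM. Cd163, the receptor that clears haptoglobin bound to haemoglobin, is also named after its values were seen, and stayed below an FPKM of 1 in all 9 libraries. Hmox1, which degrades the haem so taken up, had 239.9 ± 7.89 in M0, 876.7 ± 139.1 in M1 and 990.7 ± 399.9 in M1+PBM (SD, 3 libraries each). The proteases that Slpi blocks, Elane and Ctsg, were listed at 0 in every library save for 0.018 FPKM of Elane in M1+PBM replicate 3, and are also named after their values were seen.

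Of 22 upstream cytokines, receptors and transcription factors, 19 were tested, and with PBM 5 were lower and 0 higher at an unadjusted 0.05 or less in limma, where 1.45% of all rows were lower. The 3 called by the thresholds of the study, against 0.237% of all rows called lower, were the cytokine genes Il6, Il1a and Il1b. The paper already names Il6 and Il1a among its most changed inflammatory genes in these libraries. The list was written with earlier results known, so the count is a description. Il6, the main inducer of acute-phase genes in liver, had 21.7, 14.9 and 25.3 in M1 and 3.40, 7.30 and 1.20 in M1+PBM, or -2.29 on the log2 scale (SE 0.47, limma adjusted p = 0.90). Il1a and Il1b, which encode the IL-1 cytokines, had -1.74 and -1.07. Tnf had -0.77, with overlap. The other 2 were Rela (-0.43), an NF-κB subunit, and Cebpb, named after their values were seen. Cebpb had 30.5, 31.6 and 30.5 in M1 and 19.1, 24.6 and 27.8 in M1+PBM, or -0.38 on the log2 scale (SE 0.15, limma adjusted p = 0.90). Of the same C/EBP family, Cebpa (0.35) and Cebpd (-0.021) are named after their values were seen, and their groups overlapped.

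Genes whose log2(FPKM + 1) followed each member most closely over the 9 libraries were sought among 6122 rows with a mean FPKM of at least 5. Likeness was Pearson's r, and the 9 points share the step between M0 and the other groups. For Saa3 these were Parp12 (r = 0.999), Ifit1 and Znfx1 (r = 0.998 each), and for Lcn2 they were Usb1 and Cp (r = 0.998 each) and Isg20 (r = 0.997). For Hp they were Ddx24 (r = 0.99), Eif6 and Surf4 (r = 0.98 each). Slpi was followed by Csf3 (r = 0.95), Gde1 (r = 0.94) and Serpinb2 (r = 0.93). Ptx3 was followed less closely, by Tnfsf9 (r = 0.92), Ptpn12 (r = 0.91) and Ugcg (r = 0.90). For Lyz2 they were Hspa13 (r = 0.97), Yif1a and Tex264 (r = 0.95 each), and for Lyz1 Vkorc1 (r = 0.93), Psmd8 and Patl1 (r = 0.89 each).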

How the data were processed

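The authors deposited FPKM values in 2 tables of 55655 rows, 1 for the 3 M0 libraries and 1 for the 3 M1 and 3 M1+PBM libraries. Cufflinks is the only tool that the paper gives for them. The submitters' processing notes name Bowtie 0.12.2 and the build mm9, so no coordinates were taken from the files, and GENCODE M21 on GRCm38 served for symbols (55154 rows) and transcripts. Steps in low values put each library at 30800000 to 42040000 fragments, but only 30.9% to 33.1% of low values were whole multiples within 0.05 (even spread gives 10%), so no counts were recovered. FPKM precision for low genes is limited accordingly.

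The PBM comparison used limma 3.58.1 (R 4.3.3, lmFit and eBayes with trend) on log2(FPKM + 1), over rows that reached an FPKM of 1 in 3 or more of the 6 libraries. The fit was tested on simulated data. M0 entered no test, because its table may have been normalized separately. The 3 most abundant rows (Rn7s1, Rn7s2 and Gm47299) held 30.9% to 37.8% of the summed FPKM. Deviations from the group mean correlated between same-numbered M1 and M1+PBM libraries (r = 0.16, 0.47 and 0.46), and -0.49 to 0.033 between other numbers. Each group was centred on its own mean, so high same-number values push the others down, and the contrast is partly built in. The labels do not state a pairing. The main fit was therefore left unpaired, and a fit blocked by replicate number was made beside it.

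Named genes are the 7 members, in each list the up to 4 most abundant genes, the up to 3 tested genes with the largest change and the called genes, for each member the 3 closest rows, and the 3 most abundant rows. The marker lists, to which this rule also applies, are given as sums, 1 gene that the rule names is not reported here, and genes outside it are marked where named or serve to describe a library. The members and lists were chosen with earlier results of these data known. Fits were repeated with a pseudocount of 0.1, without the FPKM minimum, with a minimum mean of 5 FPKM, after median-of-ratios scaling, after rescaling without the 3 most abundant rows, after quantile normalization, without the eBayes trend, with the replicate block, with the lysozymes summed and leaving out each library.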

Additional observations from a re-analysis of the deposited data

How the results depend on the processing

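Ptx3 passed the thresholds of the study under every alternative in which it was tested, with a log2 fold change between -2.18 and -1.28. With a minimum mean of 5 FPKM, Ptx3 and Lyz1 were not tested, and 0 members were called. The number of members called was 2, Ptx3 and Slpi, with a pseudocount of 0.1, median-of-ratios scaling, quantile normalization and the replicate block, and between 1 and 2 when single libraries were left out. For Slpi the log2 fold changes in these 4 fits were -1.64, -1.54, -1.52 and -1.47, and between -1.93 and -0.70 without single libraries. The replicate block changed no other call of a member. Quantile normalization gave 0.070 for Saa3 and 0 for Lyz2, and leaving out single libraries gave -0.19 to 0.055 and -0.30 to 0.12. Calls over all rows numbered 32, against 75 with a pseudocount of 0.1, 67 when M1 replicate 2 was left out and 89 when M1+PBM replicate 2 was. The median of the relatives kept its sign, between -0.27 and -0.091. For M1 against M0, a pseudocount of 0.1 gave differences of 3.55 for Ptx3, 8.83 for Lcn2 and 4.76 for Slpi, and median-of-ratios scaling gave 0.069 for Lyz1 and -0.16 for Lyz2. The cause was not tested for any of these. Depth limits the M0 levels of Ptx3, Lcn2 and Slpi, which rest on a few fragments in replicates 1 and 2.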
